A study of Mus musculus with 56 samples.

Results

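The PD1+CD73+ gate effect by sensitization is the difference between 2 comparisons of CD8+ T cells sorted from female C57BL/6 mice after delivery. In each mouse, cells carrying PD1 and CD73 (subset C5) were compared with cells lacking PD1 (subset C1 or C4), which gives the gate effect. The gate effect in mice sensitized by a graft before pregnancy was then compared with that in mice that were only pregnant. The samples were taken by their labels: 18 samples of 9 mice, of the 31 samples in the series, made from 31 of its 56 libraries. Naive+Pregnancy (N+P) mice had only a mating with males of the 2W-OVA.BALB/c strain and gave N+P C1 (PD1-) and N+P C5 samples from 3 mice. Sensitized+Pregnancy (S+P) mice first rejected a skin graft from a male 2W-OVA.BALB/c donor, were then mated within the same strain of males, and gave S+P C4 (PD1-) and S+P C5 samples from 6 mice. Both kinds of mice therefore carried a semi-allogeneic pregnancy, and the donors express the model antigen 2W-OVA from an actin transgene in all tissues. The sorted cells were CD90.2+ CD8+ T cells of spleen and lymph nodes that bound the OVA:Kb tetramer, so they recognize 1 peptide of graft and fetus. The labels state neither age nor day after delivery, and N+P and S+P mice had the PD1- subset gated under different cluster names, C1 for a naive-like and C4 for a sensitized-like phenotype. The difference between the PD1- reference subsets and sensitization itself cannot be told apart in this contrast.

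PD1, the product of Pdcd1, is an inhibitory receptor that T cells display after antigen contact and keep under chronic stimulation. CD73, the product of Nt5e, is a surface enzyme that makes adenosine from AMP, and together with the folate receptor FR4 (Izumo1r) it marks anergic T cells. Memory CD8+ T cells differ from naive ones in adhesion molecules such as CD44, in cytoskeletal and calcium-binding proteins such as AHNAK and S100A6, in cytotoxic granule genes and in NK-type lectin receptors, while naive and stem-like cells hold more of the transcription factor TCF1 (Tcf7). The comparison asks whether cells that enter the PD1+CD73+ compartment differ from their PD1- neighbors by the same genes in mice with and without memory of the paternal antigens.

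The labels state that 200 cells were sorted for a sample and subset, without saying whether technical libraries share those cells. After technical libraries were summed, a sample had 15547934 to 50266661 counts. The S+P C4 samples of mice 2 and 3 stood apart, with 8002 and 7436 genes detected from 1 library each, against 12383 to 17398 genes in the other 16 samples. The median log2 ratio of C5 over PD1- cells across 6428 genes with a mean of at least 20 CPM (counts scaled to library size) was 1.17 in S+P mouse 2 and 3.20 in S+P mouse 3, against −0.02 to 0.08 in the other 4 S+P mice and 0.02 to 0.03 in the N+P mice. Some results are therefore given with and without S+P mice 2 and 3, and a value printed alone is from all mice. The library of S+P C4 replicate 1 that held the same counts as a library of Naive mice was left out. CD8 T cell identity genes (8 genes) summed to 5360 to 9430 CPM in every sample, and Cd4 was at 0 except for 3.71 CPM in 1 S+P C4 sample. The 8 markers of CD4 and regulatory T cells summed to 54.2 to 112 CPM in N+P C1 and 324 to 590 CPM in N+P C5. In S+P they summed to 28.9 to 436 CPM in C4 and 318 to 697 CPM in C5. Of this list, Ctla4 measured 198 to 350 CPM in N+P C5 and 101 to 573 CPM in S+P C5, and Foxp3 at most 4.56 CPM.

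Among 16180 genes tested in a fit with mouse as a block (edgeR quasi-likelihood test), none passed a false discovery rate (FDR, Benjamini-Hochberg adjusted p) of 0.1 and an absolute log2 fold change of 0.9 for the interaction, which is the S+P gate effect minus the N+P gate effect, and 267 genes (1.65%) had an unadjusted p under 0.05. Of these, 163 (1.01%) were higher in S+P and 104 (0.643%) lower. By other tools, DESeq2 called 141 genes with the mouse block, 102 higher and 39 lower in S+P, and limma-voom called 1. Of the genes DESeq2 called, 15 reached a mean of 20 CPM, and 11 of those were lower in S+P, Klrc1, Capg and Osbpl3 among them. Among the 6428 genes with a mean of at least 20 CPM, 47 (0.731%) had a lower and 12 (0.187%) a higher S+P gate effect at an unadjusted p under 0.05. The median interaction of these genes was 0.44 on the log2 scale and was 0.01 without S+P mice 2 and 3, so a positive log2 value near 0.44 is the middle of all genes and not a difference particular to a gene. Without these 2 mice, the smallest adjusted p of the interaction was 0.107 (edgeR), and 354 genes (5.51%) were lower and 276 (4.29%) higher at an unadjusted p under 0.05. No gene described below passed the thresholds for the interaction in the edgeR fit of the 9 mice, and the values are given as measured.

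The genes with the smallest interaction p that also had no overlap between the paired ratios of S+P and N+P mice were Klrc1, Capg, Osbpl3, Ahnak, Nkg7, H2-D1, Id2, S100a6, Spn and Cd44. Non-overlap of this direction occurred in 71 of the 6428 genes (1.1%), and it was part of the rule that chose these 10 genes. The starting points of 4 of them are shown because they lead the list by p. Each sequence is the RefSeq window of 250 bases before to 50 bases after the annotated start (GRCm38.p6, reported 5′ to 3′ on the strand of the gene), at chr6:129678924-129679223 on the minus strand for Klrc1, chr6:72549397-72549696 on the plus strand for Capg, chr6:50456121-50456420 on the minus strand for Osbpl3 and chr19:8989034-8989333 on the plus strand for Ahnak. Capitals mark matches, on either strand, to RUNX (TGNGGT), T-box (GGTGNGA) or NFAT (GGAAA) letters.
Klrc1: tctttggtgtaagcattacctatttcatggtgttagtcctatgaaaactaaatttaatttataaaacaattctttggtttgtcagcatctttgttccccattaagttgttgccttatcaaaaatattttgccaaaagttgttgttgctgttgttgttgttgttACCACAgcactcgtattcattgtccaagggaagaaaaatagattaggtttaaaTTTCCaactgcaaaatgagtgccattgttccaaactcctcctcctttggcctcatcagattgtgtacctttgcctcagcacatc
Capg: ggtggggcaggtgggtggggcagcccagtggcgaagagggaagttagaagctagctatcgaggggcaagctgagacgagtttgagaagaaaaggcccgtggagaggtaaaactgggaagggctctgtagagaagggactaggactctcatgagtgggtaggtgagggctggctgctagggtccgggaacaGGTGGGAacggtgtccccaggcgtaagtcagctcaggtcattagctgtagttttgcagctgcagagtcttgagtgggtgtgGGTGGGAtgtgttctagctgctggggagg
Osbpl3: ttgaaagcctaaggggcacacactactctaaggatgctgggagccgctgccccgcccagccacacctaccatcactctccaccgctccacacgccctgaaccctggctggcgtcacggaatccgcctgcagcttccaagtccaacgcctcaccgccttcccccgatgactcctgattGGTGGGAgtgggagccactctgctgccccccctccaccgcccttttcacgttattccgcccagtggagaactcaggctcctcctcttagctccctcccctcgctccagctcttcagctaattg
Ahnak: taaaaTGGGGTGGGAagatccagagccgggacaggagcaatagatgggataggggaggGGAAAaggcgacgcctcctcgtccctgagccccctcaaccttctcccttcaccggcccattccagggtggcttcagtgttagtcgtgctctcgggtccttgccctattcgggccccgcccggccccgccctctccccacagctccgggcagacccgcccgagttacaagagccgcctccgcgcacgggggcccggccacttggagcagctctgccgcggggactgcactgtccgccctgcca

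RUNX letters were in 2 of the 4 windows (45.8% of 32851 RefSeq windows), T-box letters in 3 (17.7%) and NFAT letters in 2 (61.3%). AP-1 letters (TGANTCA, 7.81%) and ETS letters (CCGGAA, 14.9%) were in none of the 4. In the Ahnak window the RUNX and T-box matches share bases. These are matches of letters only.

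Klrc1 encodes NKG2A, an inhibitory lectin receptor of NK cells and activated CD8+ T cells (ENSMUSG00000030167, GRCm39 chromosome 6, 129642978 to 129655936). In the N+P mice it measured 56.5, 18.01 and 7.89 CPM in C1 and 236, 22.3 and 28.1 CPM in C5 of the same mice. In the S+P mice C4 ranged from 461 to 1271 CPM (median 856) and C5 from 262 to 436 CPM (median 352). Every S+P sample was above every N+P sample in both subsets, and within mice the levels went in opposite directions, with paired log2 ratios of 0.31 to 2.06 in N+P and −1.63 to −0.81 in S+P. The interaction was −2.73 ± 0.43 (log2, SE, p = 4.58e-05, adjusted p = 0.742, edgeR, lower in 6 of 6 S+P mice), and −2.64 with an adjusted p of 0.162 without S+P mice 2 and 3. Reads of Klrc1 can be lost to its close paralogs, since reads with several positions were removed.

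Ahnak encodes a giant scaffold protein at the membrane (ENSMUSG00000069833, GRCm39 chromosome 19, 8966311 to 9055220). It measured 156, 114 and 172 CPM in N+P C1 and 564, 312 and 390 CPM in N+P C5, and ranged from 332 to 1295 CPM (median 854) in S+P C4 and from 257 to 583 CPM (median 394) in S+P C5. All N+P mice had more in C5, 5 of 6 S+P mice had less, and the C5 levels of N+P and S+P mice overlapped. The interaction was −2.48 ± 0.53 (log2, SE), and −2.96 without S+P mice 2 and 3, with adjusted p of 1 and 0.107 (edgeR). An antisense gene, Gm59071, overlaps Ahnak, genes on the other strand also overlap Capg, Id2, H2-D1 and Cd44, and the strand setting of the counting is not given in the sources used here.

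S100a6, a small calcium-binding protein, measured 81.6, 15.4 and 57.4 CPM in N+P C1 and 429, 130 and 206 CPM in N+P C5. In S+P mice it ranged from 165 to 670 CPM in C4 (median 640) and from 359 to 1042 CPM in C5 (median 512). Its level in S+P C4 lay above that in N+P C1 in every mouse, and its interaction was −2.24 ± 0.52 (log2, SE). Cd44, the hyaluronan receptor used to mark antigen-experienced T cells, measured 41.5, 49.9 and 56.0 CPM in N+P C1 and 303, 182 and 330 CPM in N+P C5. Its S+P levels were 140 to 281 CPM (median 196) in C4 and 143 to 408 CPM (median 288) in C5. The Cd44 paired log2 ratio was 2.43 ± 0.51 (SD, n = 3) in N+P and 0.43 ± 0.60 (SD, n = 6) in S+P mice, and an exact permutation test over mice gave a two-sided p = 0.0238, the smallest that 84 arrangements allow (adjusted p = 0.238 over the 10 sort and flow markers). The S+P values lay below all N+P values in 6 of 6 mice, which was part of the rule that chose the 10 leading genes. Such a separation fixes the exact p at its smallest value, so for a gene chosen by that rule the test adds no support.

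Nkg7, a cytotoxic granule membrane protein, measured 1475, 805 and 937 CPM in N+P C1, and 2474, 1724 and 1871 CPM in N+P C5. In S+P mice it ranged from 2170 to 6451 CPM in C4 (median 3797) and from 2631 to 4347 CPM in C5 (median 3016). Both S+P subsets were above the matching N+P subset in every mouse, and the interaction was −1.18 ± 0.26 (log2, SE). Id2, a transcriptional regulator of effector and memory CD8+ T cells, measured 256, 247 and 259 CPM in N+P C1 and 517, 469 and 582 CPM in N+P C5. It ranged from 688 to 1435 CPM in S+P C4 (median 888) and from 417 to 1035 CPM in S+P C5 (median 601), with an interaction of −1.61 ± 0.36 (log2, SE). Id2 was lower in C5 in 5 of 6 S+P mice and higher in 3 of 3 N+P mice.

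Capg, an actin-capping protein, and Osbpl3, an oxysterol-binding protein, had the most negative fitted interactions of the 10, −3.98 ± 0.75 and −4.36 ± 0.93 (log2, SE). Capg measured 24.8, 24.3 and 6.92 CPM in N+P C1 and 339, 189 and 79.0 CPM in N+P C5, and its S+P levels spanned 0.761 to 272 CPM in C4 and 0.303 to 138 CPM in C5. Osbpl3 measured 8.22, 4.49 and 0.883 CPM in N+P C1 and 44.6, 20.6 and 23.7 CPM in N+P C5, against 128 to 224 CPM in S+P C4 and 40.9 to 109 CPM in S+P C5. In Osbpl3 the S+P C4 levels lay above all N+P levels, and in Capg the levels of N+P and S+P mice overlapped in both subsets. Spn (CD43), a sialoglycoprotein of activated T cells, had an interaction of −1.80 ± 0.45 and H2-D1, a classical MHC class I gene, one of −0.73 ± 0.16 (log2, SE). H2-D1 has near-identical relatives, so its counts are uncertain.

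**Figure D1:**
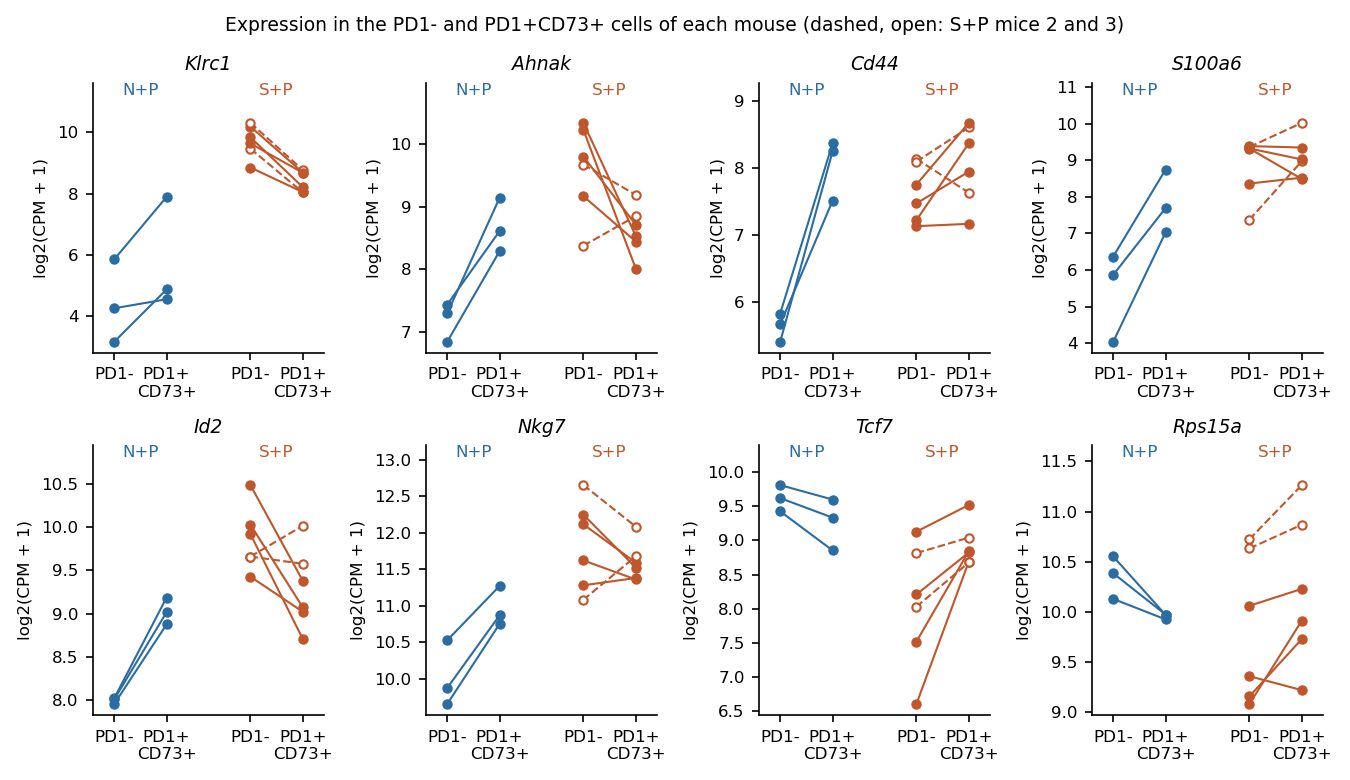
Expression of 8 genes as log2(CPM + 1) on the vertical axis, in the PD1- and PD1+CD73+ cells of each mouse, with a line joining the subsets of 1 mouse (N+P left, S+P right, open points and dashed lines for S+P mice 2 and 3). Klrc1 goes up in the N+P lines and down in the 6 S+P lines, from a median of 856 to one of 352 CPM in S+P.

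Where the difference sat was described by comparing levels within a subset. For 8 of the 10 genes (all but Capg and H2-D1) the PD1- level was higher in each S+P mouse than in each N+P mouse, while the C5 level was higher without overlap in 2 of the 10 (Klrc1 and Nkg7). Over all 6428 genes, 1.35% had a higher PD1- level in S+P without overlap and 1.99% a higher C5 level. The 10 genes were chosen on these same libraries, so these counts are a description. A bulk level cannot tell fewer expressing cells from less RNA per cell.

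The memory-associated list of surface and cytoskeletal genes held 29 genes, all of them tested, and was assembled with earlier results of these libraries known, so it is no independent evidence. Of the 29, 13 were lower in S+P and 0 higher at an unadjusted p under 0.05, against 0.643% and 1.01% of all genes, and 26 had a negative interaction. The paired ratios did not overlap, with S+P lower, for 6 of the 29, against 0.896% of all genes. The median gate effect of the list was 1.02 in N+P and −0.44 in S+P on the log2 scale, and its median interaction was −1.16, against 0.64 over all tested genes. At an unadjusted p under 0.05, 12 members were higher in C5 in N+P, against 1.33% of all genes, and 6 were lower in C5 in S+P, against 1.22%. In the other direction, 1 member was lower in C5 in N+P (Ly6c2), against 0.476%, and 2 were higher in C5 in S+P (Cxcr3 and Ly6a), against 4.13%. In single mice the list median of the 26 members with at least 20 CPM was 1.54, 0.60 and 0.80 in N+P and −0.38, −0.46, 0.55, −0.76, −0.46 and 0.09 in S+P. The S+P mice all lay below the N+P mice, S+P mouse 3 coming nearest. Of these 26 members, 12 were lower at an unadjusted p under 0.05, against 0.731% of the 6428 genes, and 19 without S+P mice 2 and 3, against 5.51%.

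Itgb1, the integrin beta-1 chain, measured 113, 105 and 166 CPM in N+P C1 and 1269, 634 and 1390 CPM in N+P C5, against a median of 641 CPM (110 to 1602) in S+P C4 and 917 CPM (565 to 1126) in S+P C5. Its interaction was −2.41 ± 0.63 (log2, SE), the S+P C5 range covered the lowest N+P C5 value only, and the paired ratios overlapped through S+P mouse 3. Lgals1, which encodes galectin-1, had a log2 interaction of −1.79, Anxa2, an annexin that binds membranes, −1.97, Itgal and Itgb2, the chains of the integrin LFA-1, −0.91 and −0.99, and S100a10, the partner of annexin A2, −1.03. The C5 levels overlapped between S+P and N+P mice in 26 of 26 members, as they did in 95.8% of the 6428 genes, and the PD1- levels were higher in S+P without overlap in 9 of 26, against 1.35%. Itgb1, Lgals1, Anxa2, Itgal, Itgb2, S100a10 and Ly6a were named after their values were seen.

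**Figure D2:**
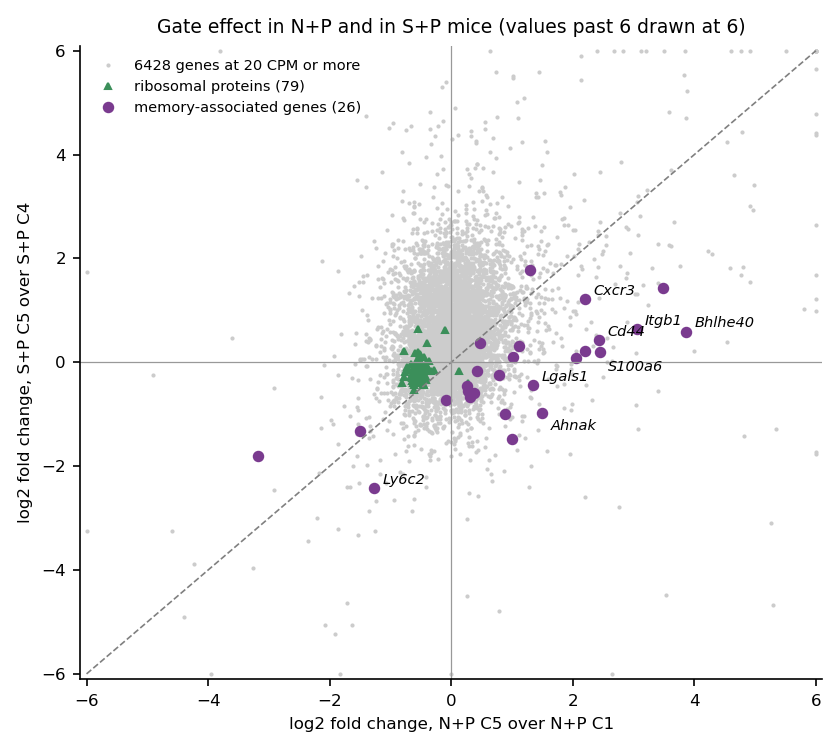
Each point is a gene with a mean of at least 20 CPM, with its log2 fold change of C5 over C1 in N+P on the horizontal axis and of C5 over C4 in S+P on the vertical axis, the dashed line marking equal effects. The 26 memory-associated genes lie mostly to the right of 0 and near or under 0 on the vertical axis (medians 1.01 and −0.20), and the 79 ribosomal protein genes have medians of −0.52 and −0.17.

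Across these 6428 genes the gate effects of the 2 kinds of mice had a Pearson r of 0.311 and a Spearman rho of 0.188, and 56.4% had the same sign. This is a relation across genes, which are not independent replicates, and the points share libraries within each kind of mouse.

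Genes of cytotoxic function and NK-type receptors gave smaller counts. Of 21 cytotoxic and effector genes tested, 3 were lower (Nkg7 and, beside it, Ccl5 and Fasl) and 0 higher, and of 13 NK lectin receptors 2 were lower (Klrc1 and Klrk1) and 0 higher at an unadjusted p under 0.05, against 0.643% lower and 1.01% higher of all genes. Ccl5, a chemokine made by memory CD8+ T cells, measured 552, 175 and 563 CPM in N+P C1 and 1076, 341 and 538 CPM in N+P C5. In S+P mice its median was 14450 CPM in C4 (2660 to 21160) and 2939 CPM in C5 (1063 to 7445), with an interaction of −2.52 ± 0.72 (log2, SE). Klrk1, the activating receptor NKG2D, ranged from 633 to 1311 CPM in S+P C4 and from 348 to 593 CPM in S+P C5, while N+P values stood at 16.7 to 45.6 CPM in C1 and 36.1 to 177 CPM in C5. Its interaction was −2.23 ± 0.57 (log2, SE), and S+P and N+P mice were separated in both subsets. Fasl, the death ligand, ranged from 3.44 to 139 CPM in S+P C5 and from 16.8 to 107 CPM in N+P C5, and its interaction was −3.29 ± 1.25 (log2, SE).

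Transcription factors of the effector and memory list had 1 of 14 members lower at an unadjusted p under 0.05, which was Id2, against 0.643% of all genes. Runx2, a Runt factor of memory cells, measured 13.3, 2.43 and 8.18 CPM in N+P C1 and 78.7, 21.1 and 32.9 CPM in N+P C5, and its S+P medians were 65.7 CPM in C4 and 62.3 CPM in C5. Its interaction was −2.10 ± 1.39 (log2, SE) in all mice and −2.46 ± 0.39 without S+P mice 2 and 3. Bhlhe40, a transcriptional repressor of activated T cells that stands in both the memory-associated and the antigen-response list, measured 22.2, 31.9 and 5.09 CPM in N+P C1 and 381, 183 and 159 CPM in N+P C5, with S+P medians of 247 CPM in C4 and 306 CPM in C5. Its interaction was −3.28 ± 0.91 (log2, SE), and the S+P C4 levels ran from 21.3 CPM, below 2 of the 3 N+P C1 values, to 716 CPM, above every N+P C5 value.

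Receptors for cytokines had 4 of 23 members lower and 0 higher at an unadjusted p under 0.05, against 0.643% and 1.01% of all genes. Ifngr1, the ligand-binding chain of the interferon-gamma receptor, measured 385, 217 and 211 CPM in N+P C1 and 290, 148 and 107 CPM in N+P C5. In S+P mice it ranged from 282 to 909 CPM in C4 (median 466) and from 33.2 to 179 CPM in C5 (median 53.7). The S+P gate effect passed the thresholds, and the interaction was −2.22 ± 0.66 (log2, SE). Il18rap, the accessory chain of the interleukin-18 receptor, had N+P values of 56.9, 43.2 and 50.1 CPM in C1 and 201, 31.6 and 75.5 CPM in C5, S+P medians of 606 CPM in C4 and 114 CPM in C5, and an interaction of −2.80 ± 0.75 (log2, SE). Among chemokine receptors, 1 of 13 was lower at that level, against 0.643% of all genes, which was Cxcr6 with −1.46 ± 0.57 (log2, SE). Of 19 genes tested that feed back on T cell receptor signals, 2 were lower and 1 higher at that level, against 0.643% and 1.01% of all genes. The list was mixed in sign, 11 members having a positive interaction, and its median was 0.05 on the log2 scale. The 2 lower ones were Tnfaip3 and Nfkbia, which feed back on NF-kappaB signals, with log2 interactions of −1.13 and −1.21.

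Among genes with the smallest p in the other direction, Tcf7, Rps15a, Rpl22l1, Ddx6, Rpl7, Pecam1, Rrm2, H3f3a, Rab3ip and Cep68 had paired ratios above N+P in each S+P mouse, as 117 of the 6428 genes did (1.82%). Tcf7 measured 686, 785 and 895 CPM in N+P C1 and 461, 643 and 773 CPM in N+P C5, against 96.4 to 558 CPM in S+P C4 (median 278) and 408 to 732 CPM in S+P C5 (median 455). The C4 values lay under all C1 values, while the C5 ranges overlapped. The Tcf7 interaction was 1.23 ± 0.41 (log2, SE, p = 0.0116, adjusted p = 1, edgeR), and 1.46 without S+P mice 2 and 3. Tcf7 overlaps the antisense gene A630014C17Rik. In these 10 genes, which were chosen on the paired ratios of the same libraries, the S+P PD1- level lay below the N+P one without overlap in 3 (Tcf7, Pecam1 and Rab3ip), against 2.74% of the 6428 genes, and the C5 levels overlapped in 10, against 95.8%. Pecam1 and Cep68 were near 0 in some S+P C4 samples. Their fitted log2 interactions were 5.49 and 6.15, and 3.82 and 3.4 without S+P mice 2 and 3.

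Ribosomal protein genes, which build the translation machinery, had 4 of 88 members higher in S+P and 0 lower at an unadjusted p under 0.05, against 1.01% and 0.643% of all genes, and 82 had a positive interaction, against 11033 of all 16180 genes. Their median gate effect was −0.52 in N+P and −0.18 in S+P on the log2 scale, against 0.00 and 0.68 over all tested genes. With all mice in the fit their median interaction was 0.35, below the 0.64 of all tested genes. In that fit the list was therefore not higher in S+P than other genes. In N+P, 15 of 88 were lower in C5 at an unadjusted p under 0.05, against 0.476% of all genes. The per-mouse medians of the 79 members with at least 20 CPM were −0.58, −0.56 and −0.44 in N+P and 0.15, −0.12, −1.13, 0.35, 0.02 and −0.35 in S+P. The kinds of mice overlapped through S+P mouse 3 alone. Without S+P mice 2 and 3 the median interaction of these 79 was 0.56, against 0.01 over the 6428 genes of at least 20 CPM. In that fit 54 of 79 were higher at an unadjusted p under 0.05, against 4.29% of the 6428 genes. Rps15a measured 1337, 1502 and 1120 CPM in N+P C1 and 1005, 1003 and 972 CPM in N+P C5, with S+P medians of 862 CPM in C4 and 1082 CPM in C5 and an interaction of 0.77 ± 0.23 (log2, SE). Ribosomal genes have many processed pseudogenes, and their counts after removal of multi-mapped reads are uncertain.

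Proteasome subunits had per-mouse medians of 0.01, 0.08 and −0.00 in N+P and 0.15 to 1.99 in S+P, and none of 37 had an unadjusted p under 0.05. The 2 highest S+P medians belonged to mice 2 and 3, and without them the median interaction went from 0.62 to 0.23.

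**Figure D3:**
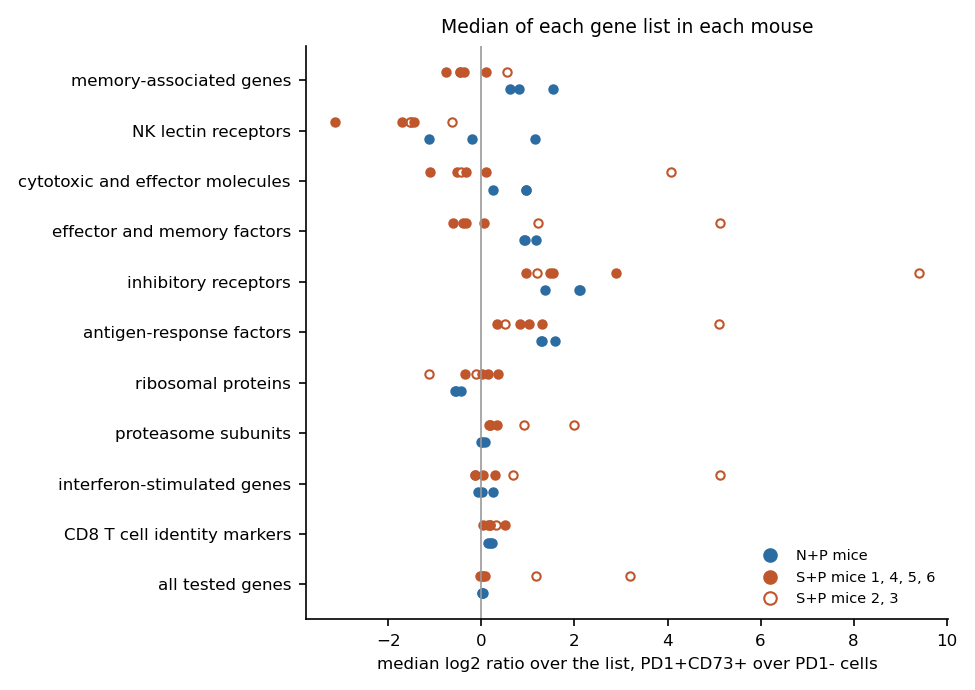
Median log2 ratio of C5 over PD1- cells for each gene list (horizontal axis) in each mouse, with N+P and S+P mice in separate colors and S+P mice 2 and 3 as open points. Memory-associated genes have all S+P mice (−0.76 to 0.55) left of all N+P mice (0.60 to 1.54), and S+P mouse 3 sits far right in several lists, among them all tested genes at 3.20.

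The genes that define the gate served as a check of the sort, and their interactions did not pass the thresholds. Pdcd1 measured 68.2, 6.26 and 12.2 CPM in N+P C1 and 416, 179 and 147 CPM in N+P C5, and ranged from 0 to 131 CPM in S+P C4 (median 54.8) and from 89.8 to 410 CPM in S+P C5 (median 325). Nt5e measured 66.3, 29.6 and 96.6 CPM in N+P C1, 120, 161 and 167 CPM in N+P C5, 0 to 120 CPM in S+P C4 and 22.1 to 170 CPM in S+P C5. Each was higher in C5 in 9 of 9 mice. The 2 values of 0 were in S+P C4 of mouse 3, and the exact permutation p of the interaction was 0.714 for Pdcd1 and 0.929 for Nt5e (two-sided). The interaction of Pdcd1 was −0.96 ± 1.57 and that of Nt5e 0.25 ± 1.56 (log2, SE). Without S+P mice 2 and 3 they were −1.40 ± 0.55 (adjusted p = 0.892, edgeR) and −0.74 ± 0.49 (adjusted p = 0.968, edgeR), and Pdcd1 had an unadjusted p of 0.0339. Izumo1r (FR4), Lag3 and Tigit had interactions of 0.11 ± 1.33, −1.33 ± 1.49 and −0.27 ± 1.31 (log2, SE). Without these 2 mice they were 0.27 ± 0.42, −1.49 ± 0.43 and −0.64 ± 0.37, and Lag3 had an unadjusted p of 0.00735 (adjusted p = 0.728, edgeR).

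Of the 16 inhibitory receptors tested, none had an interaction p under 0.05, and without S+P mice 2 and 3 it was 3 of the 11 members of at least 20 CPM, lower in S+P, against 5.51% of all such genes. Their gate effect was higher in C5 for 6 genes in S+P and 5 in N+P at an unadjusted p under 0.05, against 4.13% and 1.33% of all genes. The median was 1.81 in S+P and 1.78 in N+P on the log2 scale, against 0.68 and 0.00 over all tested genes. For the 11 members of at least 20 CPM it was 2.09 in S+P and 2.13 in N+P. These became 1.77 and 2.12 without S+P mice 2 and 3, and 1.404 and 2.125 in mice with 2 libraries in both subsets. Tox, a regulator of the exhausted state, had gate effects of 1.88 in S+P and 1.73 in N+P, and Nfatc1, a calcium-regulated factor, 0.97 and 0.98. Ctla4 gave 1.86 and 2.13, and Nfat5 0.99 and 2.04. Satb1, a chromatin organizer of naive T cells, had −3.21 and −1.87. Tnfsf4 (OX40 ligand) was at 6.72, 0 and 0 CPM in N+P C1 and 20.1, 31.6 and 20.6 CPM in N+P C5, and ranged from 0 to 15.1 CPM in S+P C4 and from 31.3 to 192 CPM in S+P C5. C5 was above the PD1- subset in every group for Tnfsf4, and none of these genes passed the thresholds in either kind of mouse. In the fit without S+P mice 2 and 3, the gate effects of Pdcd1, Lag3, Tigit and Nfat5 passed in both kinds of mice, Nfat5 with 1.45 in S+P and 2.03 in N+P (adjusted p of 0.0947 and 0.0696, edgeR).

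**Figure D4:**
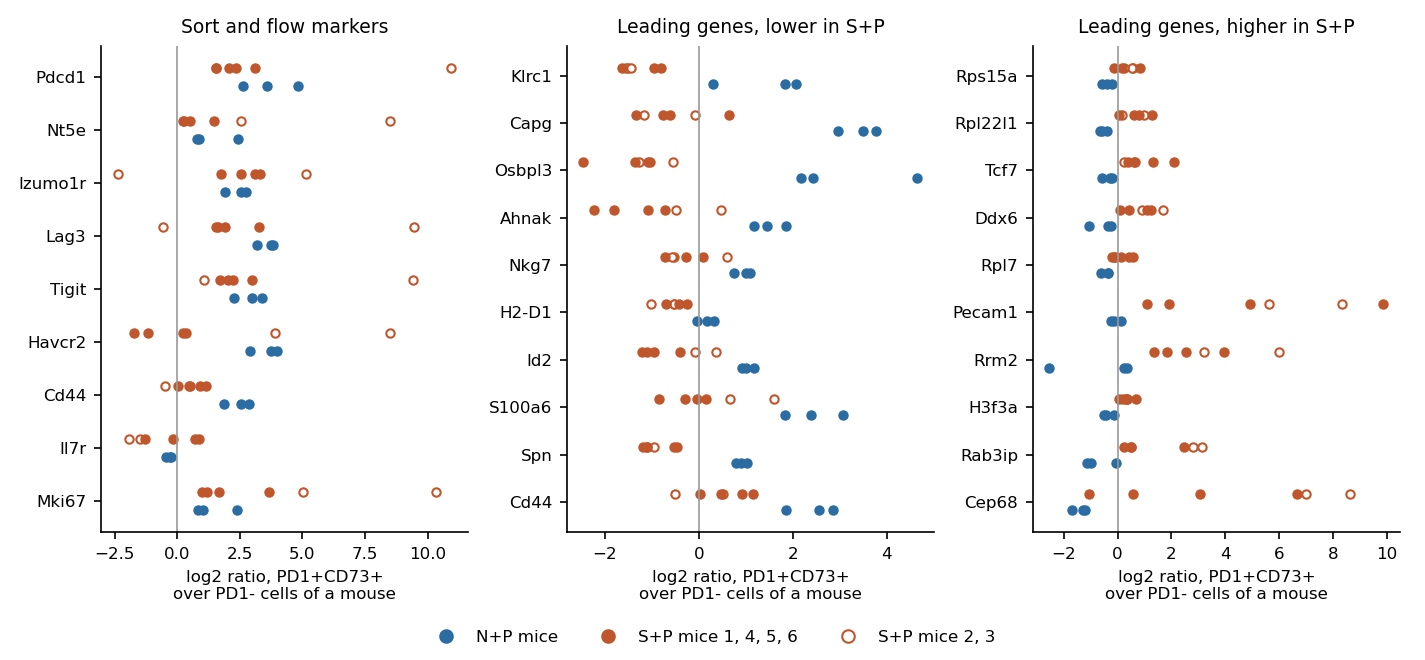
Log2 ratio of C5 over PD1- cells in each mouse (horizontal axis) for 9 of the 10 sort and flow markers, the 10 leading genes lower in S+P and the 10 leading genes higher in S+P, with S+P mice 2 and 3 as open points. Pdcd1 ratios of S+P mice run from 1.53 to 10.96 around those of N+P (2.61 to 4.82), whereas Klrc1 separates S+P (−1.63 to −0.81) from N+P (0.31 to 2.06).

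The gate effect within S+P passed the thresholds for 7 genes (0.0433% of those tested; 3 higher, 0.0185%, and 4 lower, 0.0247%), and that within N+P for none, although 293 genes (1.81%) in N+P and 865 (5.35%) in S+P had an unadjusted p under 0.05 (edgeR). In other tools N+P gave 253 genes with DESeq2 and 17 with limma-voom. In S+P, Slamf6, a receptor of the SLAM family found on stem-like T cells, rose by 2.52 on the log2 scale (adjusted p = 0.0225, edgeR), from a median of 259 CPM in C4 to one of 1322 CPM in C5. Icos, a costimulatory receptor, rose by 2.05 (adjusted p = 0.0901, edgeR), and Ifi27l2a, an interferon-induced gene, by 1.76 (adjusted p = 0.0231, edgeR). Ly6c2, the Ly6C antigen of memory cells, fell by 2.43 on the log2 scale (adjusted p = 0.0225, edgeR), from a median of 1649 to one of 335 CPM. Ifngr1 fell by 2.87, Tsc22d3, a glucocorticoid-induced regulator, fell by 1.91 and Klf2, a factor of quiescence and lymph node homing, fell by 1.40, with adjusted p of 0.0774, 0.0876 and 0.0884 (edgeR).

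In N+P the same 7 genes had log2 gate effects of 1.47 (Slamf6), 1.91 (Icos), 1.16 (Ifi27l2a), −1.27 (Ly6c2), −0.65 (Ifngr1), −0.69 (Tsc22d3) and −0.62 (Klf2). The interaction p of these genes ran from 0.006 (Ifngr1) to 0.805 (Icos), none past the thresholds, so a difference between S+P and N+P was not shown for them. The count of 7 rested on single mice: it was 0 without S+P mouse 4, 21 without S+P mouse 3 and 74 without S+P mice 2 and 3, where N+P gave 46. Icos, Tsc22d3 and Ly6c2 were named after their values were seen.

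Markers of other cells moved with some libraries. Trgc2, a gamma T cell receptor constant gene, reached 1320 CPM in S+P C4 of mouse 2, against 0 to 201 CPM in the other 17 samples. The rest of the gamma-delta list did not follow in that sample. Trdc, Trgc4, Sox13, Blk and Zbtb16 were at 0 there, and Trgc1 and Trgc3 at 0.299 and 0.0998 CPM. Hba-a1, a globin, reached 244 CPM in S+P C4 of mouse 3, against 0 to 68.8 CPM in the other samples. The 14 B and plasma cell markers summed to 878 to 1750 CPM in N+P C1, 459 to 2490 CPM in N+P C5, 70.2 to 796 CPM in S+P C4 and 386 to 758 CPM in S+P C5. NK cell markers (10 genes) summed to 30.3 to 80.8 CPM in N+P C1, 45.1 to 69.0 CPM in N+P C5, 3.62 to 238 CPM in S+P C4 and 118 to 203 CPM in S+P C5, with Ncr1 at 0 in every C5 sample. Eomes, a member of this list, gave most of the sum of every C5 sample. Its C5 level was 28.8 to 64.3 CPM for N+P mice and 97.1 to 201 CPM for S+P mice. The paper reports stronger EOMES induction among tetramer-binding CD8+ T cells of S+P mice, so this list does not mark NK cells alone. The part of these markers in the results above was not tested.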

How the data were processed

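Full-length cDNA (SmartSeq2, Nextera XT) of tetramer-sorted cells was sequenced in 1 run, with no molecular identifiers. The counts the authors deposited, 1 table of unscaled read counts, were made by trimming with cutadapt 3.4, aligning to GRCm39 with STAR 2.6.1b, removing multi-mapped reads and counting with featureCounts 2.0.1, per the labels and methods. The annotation release and strand option are not given in the sources used here. GENCODE M39 placed 54749 of 55359 genes.

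Counts of technical libraries were added up within mouse and subset. The labels number replicates, and subsets of 1 group and number were taken as 1 mouse, from which spleen and lymph nodes were pooled. Counts were tested with edgeR 4.0.16 (TMM scaling, low counts removed by filterByExpr at 10, two-sided robust quasi-likelihood test, mouse as a block, 7 residual degrees of freedom) and Benjamini-Hochberg adjustment over 16180 genes, a call needing both an FDR below 0.1 and a log2 fold change beyond 0.9 in size. Paired log2 ratios used TMM-scaled CPM with a prior count of 2, and all CPM values printed are of summed libraries. DESeq2 1.42.0 and limma 3.58.1 served as alternatives, and the fit was tested on simulated data. The simulated counts held no differences between mice, so they do not show how many true differences the fit misses in these mice. Deviations from group means correlated within a mouse at 0.03 to 0.21 in N+P and 0.08 to 0.26 in S+P. Subsets of different mice correlated at −0.216 to 0.028 in N+P and −0.184 to 0.188 in S+P, so the S+P ranges overlapped. Deviations from a group mean cancel within the group. Where same-mouse correlations are positive, this lowers those between different mice, most in the smaller N+P group. The N+P ranges are therefore no independent evidence of the pairing. Each SE of an interaction was derived as the absolute log2 fold change over the square root of the F statistic of the quasi-likelihood test. It is not a standard error reported by the fit. Intervals and errors cover these mice only.

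The members and lists were chosen with earlier results of these data known. Named genes are the 10 sort and flow markers, in each direction the 10 smallest interaction p among genes of at least 20 CPM with paired ratios that do not overlap, the 3 smallest p of each of 32 lists, and 9 genes the study names. Only those the account needed are printed, and 1 marker of the sort and flow list is not reported here.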

Additional observations from a re-analysis of the deposited data

Results flagged for a closer look

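Among the 6 S+P mice, a paired log2 ratio (C5 over PD1- cells) was marked where its gap to the nearest other mouse took an unusually large share of the whole range (Dixon's ratio). Of 75 values tested, 17 were marked, where chance marks about 1 in 20. Of the 66 named genes, 12 were marked: 6 by S+P mouse 3, 3 by S+P mouse 2 and 3 by another mouse. In S+P mouse 3 the ratios were 10.958 for Pdcd1, 8.482 for Nt5e, 9.410 for Tigit, 5.136 for Runx2, 10.486 for Zeb2 and 2.865 for Ifi27l2a, each the highest of the 6. S+P mouse 2 had 0.653 for S1pr1, −1.543 for Nfat5 and 0.536 for Icos. The values of single other mice were −4.402 for Il18rap in S+P mouse 5, and 0.712 for Nfkbia and 0.182 for Itgb2 in S+P mouse 6.

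The medians of 5 gene sets were marked in S+P mouse 3 as well: 4.073 for cytotoxic and effector molecules, 9.410 for inhibitory receptors, 5.104 for antigen-response factors, 5.122 for interferon-stimulated genes and 3.195 for all genes of at least 20 CPM. The C4 sample of this mouse had 7436 genes detected, the lowest of the 18 samples. The part of its library in these values was not tested. The median of the memory-associated genes was not among the marked values.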

How the results depend on the processing

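No gene passed the thresholds for the interaction under TMM, RLE or library-size scaling, without filter, with a mean of at least 10 CPM, at either FDR, or with any mouse left out. It gave 141 genes with DESeq2 and the block, 375 with DESeq2 without it, 1 with limma-voom (mt-Rnr1, −1.14) and 1 in mice with 2 libraries in both subsets (Slc6a19, −10.77). Without the replicate block, edgeR gave 0 for the interaction, 4 for the S+P gate effect and 0 for N+P (1 in N+P with all 7 groups in the fit). Same-mouse correlations did not all pass 0.1, so the pairing rests on the numbers in the labels. The S+P count of 7 became 1252 and 464 with DESeq2 with and without the block, 33 with limma-voom, 12 at 10 CPM, 3 at FDR 0.05, 4 with the deepest library, 74 without S+P mice 2 and 3, 68 in mice with 2 libraries, and 0 to 21 with each mouse left out. The N+P count of 0 became 253 and 341 with DESeq2, 17 with limma-voom, 46 without S+P mice 2 and 3, 88 in mice with 2 libraries, and 9 without S+P mouse 3 (0 to 9 over mice). Genes whose ratios do not overlap numbered 324 higher and 145 lower, 693 and 642 without S+P mice 2 and 3, 984 and 1091 in mice with 2 libraries, and 423 to 791 and 183 to 356 with each mouse left out, which fewer mice raise by construction. The cause of the other shifts was not tested.

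Of 66 named genes, 56 kept their direction under all 25 alternatives, the leading genes of both directions among them, and 10 did not. The leading genes were chosen on paired ratios that do not overlap, so leaving mice out could hardly reverse them. Their stability therefore adds no support. Alternatives that change only the FDR or the minimum fold change use the same fit and cannot change a direction. The Nt5e interaction (0.25) was −0.31, −0.30 and −0.36 without the block (edgeR with 4 groups, with 7 groups, DESeq2), −0.74 without S+P mice 2 and 3, −0.62 in mice with 2 libraries and −0.36 to 0.79 with each mouse left out. In the same order without the block, Izumo1r (0.11) was −0.91, −0.93 and −1.09, Tox (0.15) −0.19, −0.18 and −0.24, Icos (0.13) −0.22, −0.24 and −0.29, and Tnfsf4 (−2.24) 0.57, 0.61 and 0.52. With limma-voom Izumo1r was −0.16, Tox −0.30 and Icos −0.038, and Izumo1r was −0.17 with the identical library kept. Tox was −0.043 without S+P mice 2 and 3 and −0.43 in mice with 2 libraries, and Il7r (−0.22) 0.38 and 0.09. Mki67 (1.76) was −2.56 with the deepest library, Nfatc1 (−0.01) was 0.12 with library size alone, and the Pdcd1 difference in mean paired ratio (−0.08) was 0.25 with a prior count of 0.5. With each mouse left out Izumo1r ran from −0.42 to 0.74, Tigit from −0.86 to 0.10, Il7r from −0.53 to 0.053, Tox from −0.22 to 0.38, Nfatc1 from −0.32 to 0.18, Ctla4 from −0.74 to 0.14, Tnfsf4 from −5.87 to 1.12 and Icos from −0.078 to 0.45.

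With 3 N+P mice the exact test cannot go below p = 0.0238, and sorts of 200 cells limit what can be measured of genes at low level.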
